A study of Mus musculus with 9 samples.

Results

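The genes described are the mouse class II genes of the major histocompatibility complex (MHC) and genes that serve or control them: the chain genes H2-Ea, H2-Eb1, H2-Aa and H2-Ab1, the peptide loading genes Cd74, H2-DMa and H2-DMb2, and the regulator Ciita. Their probe sets were those to which the platform annotation gives 1 gene symbol, a member of this set. All 8 genes were measured, by 20 probe sets, among 18193 genes and 34945 probe sets with 1 symbol. The genes were chosen with earlier results of these data known.

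The study recovered RNA bound to Argonaute (AGO), the protein that holds microRNAs and the transcripts they pair with, from C57BL/6 T cells, and measured it on expression arrays. It asked which transcripts differ when T cells meet foreign dendritic cells and are distinct from those of unspecific stimulation. There were 3 arrays for each of 3 cultures, and each array carries a biological replicate number from 1 to 3 that recurs in every culture. Neither RNA before immunoprecipitation nor arrays of the dendritic cells themselves were analysed here, so a signal is a level of AGO-bound RNA.

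Allogeneic arrays came from C57BL/6 T cells kept for 24 h with dendritic cells of BALB/c mice. Anti-CD3/CD28 arrays came from C57BL/6 T cells stimulated for 24 h with antibodies against CD3e and CD28, at 0.1 µg/ml, and no dendritic cells are named for them. Syngeneic arrays came from C57BL/6 T cells kept for 24 h with dendritic cells of C57BL/6 itself. Both co-cultures held 20 T cells per dendritic cell. In every culture, cells were then labelled with beads against CD11c, a dendritic cell surface protein, and T cells were taken as the unlabelled fraction of a magnetic column, a step that removes dendritic cells. All T cells were crosslinked with ultraviolet light before the AGO pull-down. The labels do not state the age and sex of the mice, where the dendritic cells came from or whether animals were pooled. The labels call the replicates biological but name no separate mice or cultures, so p-values measure only the spread between these arrays.

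Class II molecules are pairs of an alpha and a beta chain that show peptides from taken-up material to CD4 T cells, and they are made mainly by dendritic cells, macrophages and B cells. Mouse T cells make little or none of them, in contrast to activated human T cells. The transcriptional co-activator Ciita joins factors bound to the X and Y boxes upstream of class II, Cd74 and H2-DM genes, and its own gene responds to interferon gamma. BALB/c mice (H-2d) make both the A and the E molecule, whereas C57BL/6 mice (H-2b) carry a deletion in the promoter of H2-Ea and make no transcript of it. H2-Ea RNA therefore has a possible source only in cultures with BALB/c cells.

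T cell markers were looked up for the labelled cell type. All 12 measured genes of a list of 14 T cell markers, among them Cd3e and Zap70, lay above the array's median probe set signal on all 9 arrays. This does not show that the samples held T cells only. By the same measure, 12 of 17 measured dendritic cell markers and 4 of 11 measured B cell markers also lay above the median on every array. Array medians ran from 4.58 to 5.67 on the log2 scale. Exact equality between arrays of the same replicate number was common: 19.7% to 49.9% of all 34945 probe sets had the same value on 2 such arrays, and none did on arrays of different numbers. Among the 20 class II probe sets, 9 were exactly equal on the allogeneic and anti-CD3/CD28 arrays of number 1. For a class II gene, equal signals within a number may be values of this kind, and whether the transcript levels were equal there was not tested. Whether the 3 numbers were normalized together is not stated, so a level set across numbers may be affected, while differences within a number do not cross them.

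H2-Ea, the alpha chain of the E molecule, was high on 1 of the 3 allogeneic arrays. Probe set 1422891_at read 4.55, 7.16 and 9.57 (log2) on allogeneic arrays 1, 2 and 3, against 4.55, 6.57 and 4.10 on anti-CD3/CD28 arrays and 4.49, 6.64 and 4.00 on syngeneic arrays. Only allogeneic array 3 stood clear of the other arrays, and allogeneic array 1 had the value of anti-CD3/CD28 array 1 to 2 decimals. On 5 of the 9 arrays this probe set lay at or under the array's median.

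The other H2-Ea probe sets did not all behave alike. Probe set 1422892_s_at read 4.67, 5.72 and 9.88 on allogeneic arrays, against 5.02, 3.98 and 3.44 on anti-CD3/CD28 arrays and 3.93, 7.87 and 3.69 on syngeneic arrays. It too was highest on allogeneic array 3, but its second highest signal was on syngeneic array 2, a culture of C57BL/6 cells alone. Probe set 1426202_at stayed between 3.07 and 4.29 on all 9 arrays, under the median on each, and its 3 values in replicate number 3 were all 3.11. The high signal of allogeneic array 3 was thus seen by 2 of the 3 probe sets. On syngeneic array 2, without BALB/c cells, 1422891_at and 1422892_s_at read 6.64 and 7.87, above the highest array median of 5.67. Whether these probe sets also read other transcripts was not tested.

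Set by replicate number, the allogeneic array minus the mean of the other 2 arrays of the same number gave the size of the H2-Ea signal as a sign of BALB/c RNA. For 1422891_at it was 0.03 in number 1, 0.55 in number 2 and 5.52 in number 3. For 1422892_s_at it was 0.20, −0.20 and 6.32. In number 3 the arrays it was set against read 4.10 and 4.00 for the first probe set and 3.44 and 3.69 for the second, under the medians of the arrays, so no exact fold is given. On allogeneic array 1 it differed from anti-CD3/CD28 and syngeneic array 1 by 0.00 and 0.06 for 1422891_at, and by −0.35 and 0.75 for 1422892_s_at. No excess of H2-Ea was thus seen in number 1, although that array is labelled as a culture with BALB/c cells.

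**Figure D1:**
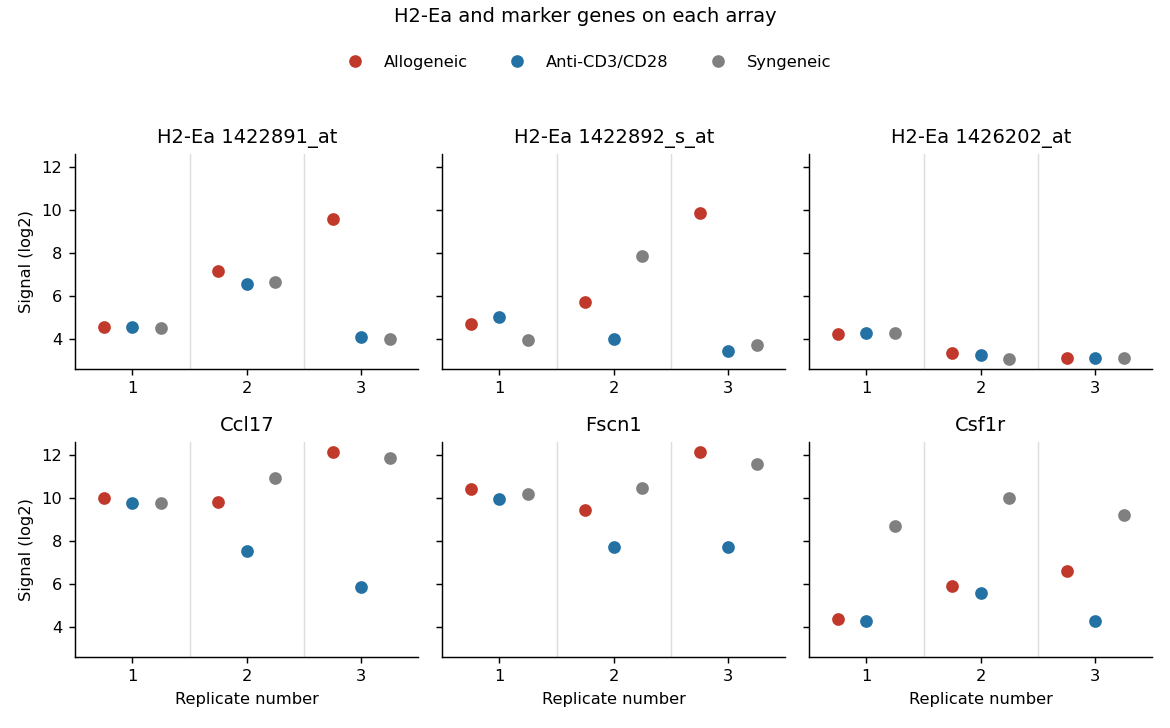
Signal (log2) of the 3 H2-Ea probe sets (top) and of Ccl17, Fscn1 and Csf1r (bottom) on each array, by replicate number, with allogeneic arrays left of anti-CD3/CD28 and syngeneic arrays. Each point is 1 array. H2-Ea stands at 9.57 and 9.88 on allogeneic array 3 for 2 probe sets, while the 3 arrays of number 1 lie together for 1422891_at.

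The difference between cultures did not pass the test for H2-Ea. Probe set 1422891_at averaged 7.09 ± 2.51 on allogeneic arrays, 5.08 ± 1.32 on anti-CD3/CD28 arrays and 5.05 ± 1.40 on syngeneic arrays (SD, n = 3 each). Allogeneic arrays lay higher by 2.03 ± 0.99 (SE, 95% interval −0.12 to 4.19) than the 6 arrays without BALB/c cells, with a limma p of 0.0624 and an adjusted p of 1. With the replicate number as a block the adjusted p was 0.891. An exact two-sided permutation test of 3 against 6 arrays gave p = 0.155, where 0.0119 is the smallest p the design allows. Permuting cultures only within replicate numbers gave an exact p of 0.0741, where 0.037 is the smallest possible.

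The same tests on the other H2-Ea probe sets gave exact permutation p of 0.167 and 0.798 for 3 against 6 arrays, and of 0.259 and 0.667 within replicate numbers. Against syngeneic arrays alone, 1422891_at was higher on allogeneic arrays by 2.05 ± 1.15 (SE). Across fits that left out 1 array or 1 replicate number this difference ran from 0.29 to 3.32, and it was 0.81 without allogeneic array 3 and 0.29 without number 3. Anti-CD3/CD28 arrays differed from syngeneic arrays by 0.03 ± 1.15 for this probe set and by −1.02 ± 1.30 for 1422892_s_at, for which the difference in number 2 was −3.89, although neither culture is named as holding BALB/c cells.

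Dendritic cell markers had another order over the arrays than H2-Ea. The mean of 17 measured markers of 18 was 6.86, 7.37 and 8.28 on allogeneic arrays, against 6.76, 6.89 and 6.37 on anti-CD3/CD28 arrays and 6.81, 7.81 and 8.27 on syngeneic arrays. In number 1 the 3 cultures lay between 6.76 and 6.86, and no dendritic cells are named for the antibody culture. With no H2-Ea excess on allogeneic array 1 either, these markers do not tell the cultures of number 1 apart. Markers of macrophages and monocytes did set syngeneic array 1 apart, with a mean of 6.45. On allogeneic and anti-CD3/CD28 array 1 that mean was 5.06 and 5.03. Whether the arrays of number 1 are what their labels say was not tested, nor was how completely dendritic cells were removed. Group means include number 1. Without it, H2-Ea 1422891_at was higher on allogeneic than on syngeneic arrays by 3.04 ± 1.37 (SE), H2-Eb1 differed by −0.95 ± 1.27, H2-Aa by −0.70 ± 0.64 and H2-Ab1 by −0.82 ± 0.76, each with an adjusted limma p of 1, and 0 class II probe sets were called in any comparison. Of the 17 genes, 12 lay above the median on every array, and Xcr1 and Cd209a lay at or under it on every array.

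Ccl17, a chemokine of mature dendritic cells, read 10.01, 9.83 and 12.16 on allogeneic arrays, against 9.80, 7.53 and 5.86 on anti-CD3/CD28 arrays and 9.80, 10.93 and 11.87 on syngeneic arrays. Fscn1, an actin-bundling protein of mature dendritic cells, read 10.44, 9.46 and 12.16 on allogeneic arrays, against 9.97, 7.75 and 7.72 on anti-CD3/CD28 arrays and 10.20, 10.48 and 11.59 on syngeneic arrays. Both were thus high in number 3 in both co-cultures and low in the antibody culture of that number, while in number 1 all 3 cultures were alike. These 2 genes were chosen after their values were seen. The gap in number 3 was not confined to them: the mean of the 17 measured markers was 8.28, 6.37 and 8.27 on its allogeneic, anti-CD3/CD28 and syngeneic arrays. Of the 17, 6 were higher on the allogeneic than on the anti-CD3/CD28 array in all 3 numbers, where the background was 3.96%. In the other direction it was 0 of 17, against 2.65%. Not all markers shared the gap. On allogeneic, anti-CD3/CD28 and syngeneic array 3, Ccr7 read 12.25, 12.12 and 12.20 and Zbtb46 read 8.35, 7.87 and 8.16. Siglech read 4.98 on each of these arrays, and in every number its values in the 3 cultures were equal to 2 decimals. What part dendritic cells left after purification had in these signals was not tested.

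Promoters of 4 of the 8 genes were searched in a RefSeq table of the mouse assembly GRCm38.p6. Cd74 was left out of this search, so nothing is said of its promoter. The X and Y boxes are the sites through which Ciita acts on this gene family. Of the 4 genes, the 3 with a match to a motif searched are shown, so they were chosen by the outcome of the search. Each run is the 150 bases before the annotated start, 5′ to 3′ on the strand of the gene. Capitals mark the Y box letters TGATTGG, the X box letters AACNGATG and, in H2-Aa, the cyclic AMP response element letters TGACGTC, searched on both strands.
H2-DMb2, chr17:34145099-34145248, plus strand: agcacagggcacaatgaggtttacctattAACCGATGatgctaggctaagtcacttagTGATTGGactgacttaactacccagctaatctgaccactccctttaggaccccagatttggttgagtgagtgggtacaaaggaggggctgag
H2-Aa, chr17:34287824-34287973, minus strand: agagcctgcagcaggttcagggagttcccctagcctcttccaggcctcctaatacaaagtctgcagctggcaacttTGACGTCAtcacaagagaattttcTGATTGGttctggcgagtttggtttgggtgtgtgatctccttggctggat
H2-Eb1, chr17:34305717-34305866, plus strand: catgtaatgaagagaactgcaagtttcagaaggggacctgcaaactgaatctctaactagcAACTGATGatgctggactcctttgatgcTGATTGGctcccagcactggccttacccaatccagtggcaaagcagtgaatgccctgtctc

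The Y box letters began 92 bases before the start in H2-DMb2, 50 bases before it in H2-Aa and 61 bases before it in H2-Eb1. The X box letters lay upstream of the Y box, 121 bases before the start in H2-DMb2 and 89 bases before it in H2-Eb1. In H2-Aa these X box letters were not in the window, which does not show that the gene lacks an X box. Its window held 2 overlapping matches to the response element, 1 on each strand, of which the first began 74 bases before the start. Both H2-DMa windows in the table held none of the 3 motifs. Of all 32851 promoters in windows of the same length, 5.71% held the Y box letters, 1.14% the X box letters and 2.33% the response element letters. A match to these letters is a description and does not show that a factor bound there. In the same assembly 6 members lie on chromosome 17 in the order H2-DMa, H2-DMb2, H2-Ab1, H2-Aa, H2-Eb1 and H2-Ea, and H2-Ea is annotated as a transcribed pseudogene of this C57BL/6 genome. Ciita lies on chromosome 16.

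H2-Eb1, the beta chain of the E molecule and a gene with the letters of both boxes above, is made by both strains. Its signal was 7.55, 7.40 and 10.53 on allogeneic arrays, against 7.33, 8.34 and 10.05 on anti-CD3/CD28 arrays and 8.48, 8.88 and 10.94 on syngeneic arrays. In each replicate number the syngeneic array was the highest, and in each culture the array of number 3 was. Allogeneic minus syngeneic was −0.93, −1.48 and −0.41 by number, and anti-CD3/CD28 minus syngeneic was −1.15, −0.55 and −0.89.

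H2-Aa, the alpha chain of the A molecule, has 4 probe sets. The brightest, 1435290_x_at, read 6.76, 9.78 and 11.31 on allogeneic arrays, against 6.76, 9.89 and 10.80 on anti-CD3/CD28 arrays and 7.41, 11.05 and 11.44 on syngeneic arrays. Again the syngeneic array was the highest of each number, by 0.64, 1.26 and 0.13 over the allogeneic one and by 0.64, 1.15 and 0.64 over the anti-CD3/CD28 one. Probe set 1438858_x_at also had the syngeneic array highest in each number, with allogeneic minus syngeneic at −0.32, −0.73 and −0.82.

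The remaining H2-Aa probe sets were less even. Probe set 1452431_s_at was lower on allogeneic than on syngeneic arrays in numbers 1 and 2, by 0.69 and 1.05, and higher in number 3 by 0.46. Probe set 1443783_x_at lay at or under the median on all 9 arrays, between 2.28 and 3.96, so its differences rest on dim signals.

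H2-Ab1, the beta chain of the A molecule, has 3 probe sets. Probe set 1450648_s_at read 8.24, 8.66 and 10.69 on allogeneic arrays, against 8.30, 9.43 and 10.26 on anti-CD3/CD28 arrays and 9.59, 10.24 and 10.74 on syngeneic arrays. Allogeneic minus syngeneic was −1.35, −1.58 and −0.05, so the gap present in numbers 1 and 2 was nearly closed in number 3. Probe sets 1451721_a_at and 1425477_x_at differed from it in number 3, where the allogeneic array was the higher by 0.56 and 0.99, and 1425477_x_at was equal to 2 decimals in all 3 cultures of number 2.

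Cd74, the invariant chain that escorts new class II molecules, has 1 probe set. It read 9.55, 9.55 and 12.31 on allogeneic arrays, against 9.27, 9.64 and 11.84 on anti-CD3/CD28 arrays and 10.34, 10.60 and 12.05 on syngeneic arrays. The allogeneic array was under the syngeneic one in numbers 1 and 2 and above it in number 3, while the anti-CD3/CD28 array was under the syngeneic one in all 3. These differences were −0.79, −1.05 and 0.26 for allogeneic minus syngeneic and −1.07, −0.96 and −0.21 for anti-CD3/CD28 minus syngeneic.

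**Figure D2:**
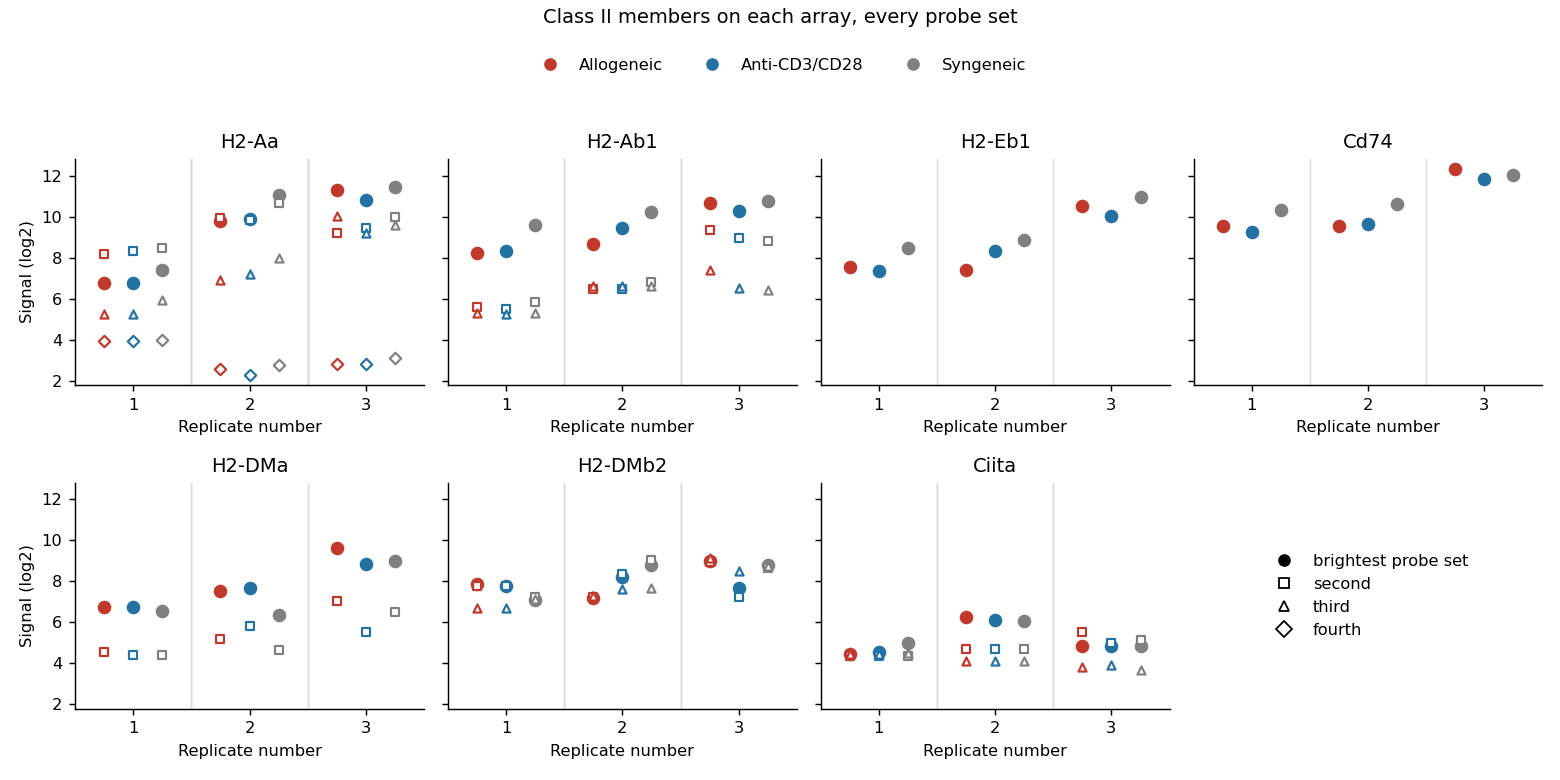
Signal (log2) of every probe set of the 7 members other than H2-Ea on each array, by replicate number, with allogeneic arrays left of anti-CD3/CD28 and syngeneic arrays. Filled symbols are the brightest probe set of a gene, and levels of different probe sets are not comparable. H2-Aa, H2-Ab1, H2-Eb1 and Cd74 are highest on the arrays of number 3 for their brightest probe sets.

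H2-DMa and H2-DMb2 code for chains of the H2-DM protein, which swaps peptides on class II molecules. H2-DMa 1422527_at read 6.74, 7.53 and 9.64 on allogeneic arrays, against 6.74, 7.67 and 8.84 on anti-CD3/CD28 arrays and 6.56, 6.35 and 8.98 on syngeneic arrays. Unlike for H2-Eb1 and the brightest probe sets of H2-Aa and H2-Ab1, the allogeneic array lay above the syngeneic one in all 3 numbers, by 0.18, 1.18 and 0.67. The other H2-DMa probe set, 1459872_x_at, had the same direction in each number but lay at or under the median on 5 arrays.

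H2-DMb2 1443687_x_at read 7.87, 7.19 and 8.98 on allogeneic arrays, against 7.75, 8.20 and 7.67 on anti-CD3/CD28 arrays and 7.09, 8.82 and 8.81 on syngeneic arrays. Its order of cultures differed between the numbers, with allogeneic minus syngeneic at 0.78, −1.63 and 0.18. For probe set 1443686_at these differences were 0.55, −1.83 and 0.29. Probe set 1419744_at was lower on anti-CD3/CD28 than on syngeneic arrays in every number. The 2 probe sets listed for both H2-DMb2 and its near copy H2-DMb1 were left out.

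Ciita was dim. Probe set 1421210_at read 4.44, 6.24 and 4.86 on allogeneic arrays, against 4.53, 6.13 and 4.86 on anti-CD3/CD28 arrays and 4.97, 6.08 and 4.86 on syngeneic arrays. It lay at or under the median on 4 arrays, probe set 1421211_a_at did so on 6, and 1447075_at on all 9. The means of 1421210_at were 5.18 ± 0.94, 5.17 ± 0.84 and 5.30 ± 0.67 on allogeneic, anti-CD3/CD28 and syngeneic arrays (SD, n = 3 each). At this brightness a difference in Ciita was not detectable, and its absence is not shown.

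Against syngeneic culture, allogeneic culture gave 0 calls among the 20 class II probe sets in limma with Benjamini-Hochberg adjustment at 0.05, and the background was 0% of 34945 probe sets. With the replicate block it again gave 0, against a background of 0%. Without adjustment, 0 of the 20 had a p under 0.05, and 39 of all probe sets did. With the block, 4 of the 20 had an unadjusted p under 0.05, where the background was 4.07%, and their adjusted p was 0.747 each. These were H2-Eb1 1417025_at, H2-Aa 1435290_x_at and 1438858_x_at, and H2-Ab1 1450648_s_at.

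The fitted differences between allogeneic and syngeneic arrays were −0.94 ± 0.98 for H2-Eb1, −0.68 ± 1.33 for H2-Aa, −0.99 ± 0.71 for H2-Ab1 and −0.53 ± 0.82 for Cd74, on the brightest probe set of each (log2, SE). They were 0.67 ± 0.95 for H2-DMa, −0.22 ± 0.71 for H2-DMb2 and −0.13 ± 0.66 for Ciita. Without the block the 95% interval of each included 0, and that of H2-Ab1 ran from −2.53 to 0.54. With the block the SEs were 0.30 for H2-Eb1, 0.22 for H2-Aa, 0.33 for H2-Ab1, 0.26 for Cd74, 0.32 for H2-DMa, 0.57 for H2-DMb2 and 0.15 for Ciita, and the unadjusted intervals of H2-Eb1, H2-Aa and H2-Ab1 then did not include 0. Within the replicate numbers, 5 of the 20 probe sets were lower on the allogeneic array in all 3, where the background was 7.49%, and 3 were higher in all 3, where it was 6.84%. The 5 were those of H2-Eb1, H2-Ab1 1450648_s_at and 3 of H2-Aa, and the 3 were both of H2-DMa and H2-Ea 1422891_at. A probe set with equal values in any number counts in neither direction. On allogeneic and syngeneic arrays, 32.4%, 19.7% and 25.3% of all probe sets were equal in numbers 1, 2 and 3. Of the 20, 10%, 15% and 10% were. For 0 of the 20 did the 2 groups not overlap, against a background of 0.535%.

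The medians of the 20 differences were −0.05, −0.34 and 0.27 in numbers 1, 2 and 3, where the median of all probe sets was 0.00 in each. In number 3, where H2-Ea was high on the allogeneic array, 13 of the 20 probe sets were higher on the allogeneic than on the syngeneic array, 5 were lower and 2 were equal, beside 37.3% higher and 37.4% lower of all probe sets. The 13 include H2-Ea 1422891_at and 1422892_s_at. In numbers 1 and 2, 12 of the 20 were lower on the allogeneic array in each, beside 36.3% and 32.5% of all. Over all numbers the members' median fitted difference was −0.13, beside 0.02 for all probe sets.

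Against syngeneic culture, anti-CD3/CD28 culture also gave 0 calls among the 20 with limma, where the background was 0%, and 0 with the replicate block, where it was 0%. An unadjusted p under 0.05 without the block was found for 0 of the 20 and for 237 of all probe sets. With the block, 6 of the 20 had an unadjusted p under 0.05, where the background was 6.06%, and their adjusted p was 0.736 each. Within the replicate numbers, 8 of the 20 were lower on the anti-CD3/CD28 array in all 3, where the background was 8.3%, and 0 were higher in all 3, where it was 7.94%. Equal values, which count in neither direction, were held by 34.6%, 31% and 21.6% of all probe sets in numbers 1, 2 and 3. Of the 20, 10%, 15% and 10% were equal. For 0 of the 20 were the groups apart, against a background of 1.53%.

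The 8 probe sets lower in every number were those of H2-Eb1 and Cd74, all 4 of H2-Aa, H2-Ab1 1450648_s_at and H2-DMb2 1419744_at. Their fitted differences included −0.86 ± 0.98 for H2-Eb1, −0.81 ± 1.33 for H2-Aa 1435290_x_at, −0.86 ± 0.71 for H2-Ab1 and −0.75 ± 0.82 for Cd74 (log2, SE), and with the block the SEs were 0.30, 0.22, 0.33 and 0.26 in the same order. These 4, with H2-Aa 1438858_x_at and 1443783_x_at, were the 6 with an unadjusted p under 0.05 with the block. Number 3 did not stand apart here: 14 of the 20 were lower on its anti-CD3/CD28 array, and 13 of the 20 were in numbers 1 and 2 each, beside 40.9%, 33.2% and 28.4% of all probe sets in numbers 3, 1 and 2. The members' median fitted difference was −0.26, beside 0.00 for all probe sets. Both comparisons with syngeneic arrays use the same 3 syngeneic arrays.

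Between allogeneic and anti-CD3/CD28 culture, limma called 0 of the 20, where the background was 0%, and 0 with the block, where it was 0%. An unadjusted p under 0.05 was found for 0 of the 20 and for 42 of all probe sets. With the block, 0 of the 20 had an unadjusted p under 0.05, against a background of 1.18%. In all 3 numbers, 0 were lower on the allogeneic array, against 2.65%, and 0 were higher, against 3.96%. The groups overlapped for all 20, with a background of 0.269% without overlap.

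The numbers differed in this comparison. In number 1, 9 of the 20 were exactly equal, and the median difference was 0.00. In number 2, 10 of the 20 were lower on the allogeneic array, 6 were higher and 4 were equal, and the median difference was −0.04. Of all probe sets 31.7% were lower and 44.9% higher in number 2. H2-Ea 1422891_at was higher by 0.59 in that number and 1422892_s_at by 1.74. In number 3, 15 of the 20 were higher on the allogeneic array, 2 were lower and 3 were equal, and the median difference was 0.52. The 15 include H2-Ea 1422891_at and 1422892_s_at. Of all probe sets 40.4% were higher and 32.1% lower there. There H2-Eb1 was higher by 0.48 and H2-DMa 1422527_at by 0.80, both smaller than the 5.47 of H2-Ea 1422891_at.

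**Figure D3:**
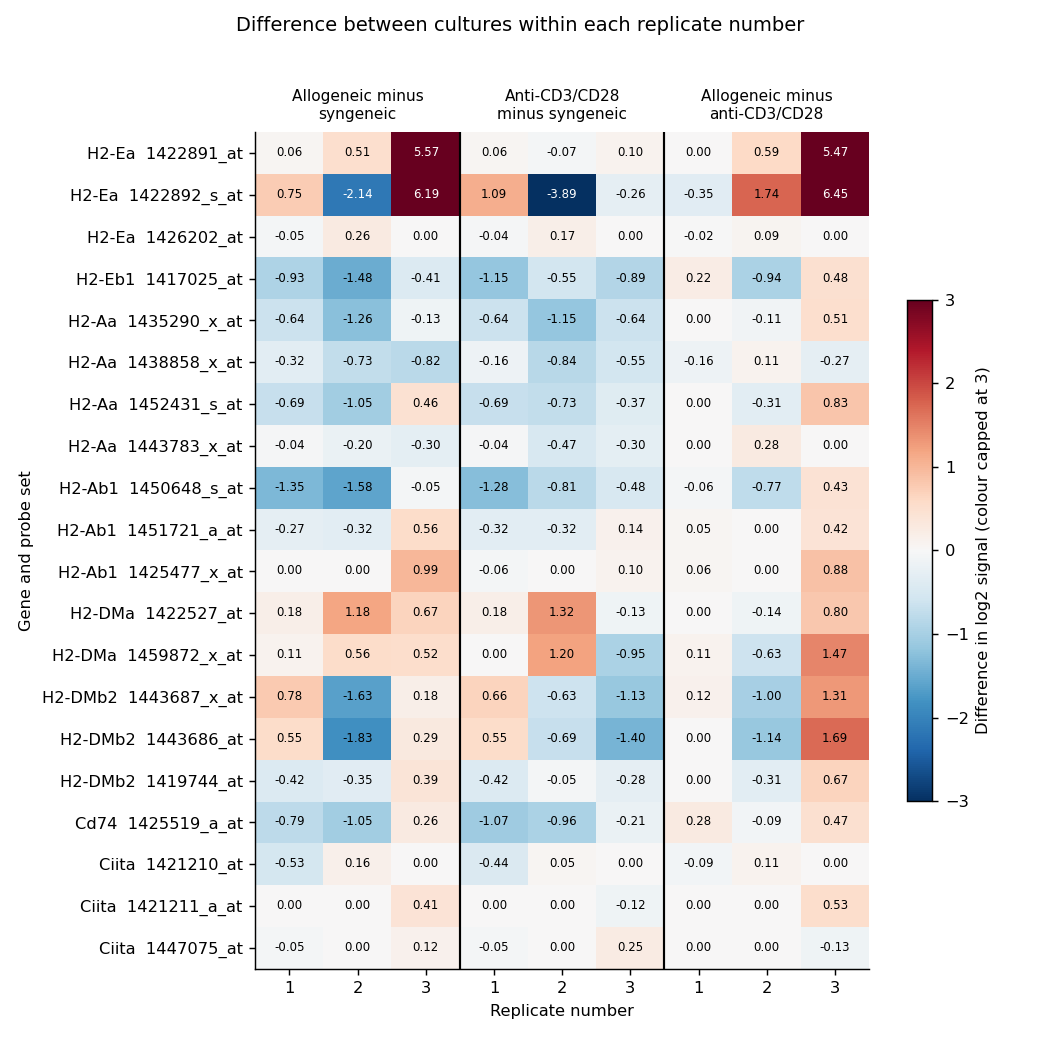
Difference in log2 signal between cultures within each replicate number, for each of the 20 class II probe sets (rows) and 3 comparisons (blocks of 3 columns, one for each number). Blue cells are lower and red cells higher in the culture named first, with colour capped at 3. The row of H2-Ea 1422891_at reads 0.06, 0.51 and 5.57 for allogeneic minus syngeneic.

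The mean of the brightest probe sets of H2-Aa, H2-Ab1, H2-Eb1 and Cd74 gave a summary of the class II genes that antigen-presenting cells of both strains make. It was 8.03, 8.85 and 11.21 on allogeneic arrays, against 7.92, 9.32 and 10.74 on anti-CD3/CD28 arrays and 8.95, 10.19 and 11.29 on syngeneic arrays. The syngeneic array was the highest in every number, and the array of number 3 was the highest of every culture. Allogeneic minus syngeneic was −0.93, −1.34 and −0.08, and anti-CD3/CD28 minus syngeneic was −1.04, −0.87 and −0.56. Whether these probe sets read the transcripts of both strains equally well was not tested.

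Markers of macrophages and monocytes were also highest on the syngeneic array of every number. The mean of 13 measured genes of 14 was 5.06, 5.83 and 5.52 on allogeneic arrays, against 5.03, 5.66 and 4.31 on anti-CD3/CD28 arrays and 6.45, 7.35 and 7.04 on syngeneic arrays. Of these, 9 of 13 were lower than on the syngeneic array in all 3 numbers in each comparison with it, where the shares of all probe sets were 7.49% and 8.3%. Of the 13, 3 lay above the median on every array and C1qa lay at or under it on all. Csf1r, the receptor for macrophage growth factor, read 4.37, 5.91 and 6.63 on allogeneic arrays, against 4.28, 5.58 and 4.26 on anti-CD3/CD28 arrays and 8.71, 9.99 and 9.21 on syngeneic arrays. The markers differed in size: allogeneic and anti-CD3/CD28 minus syngeneic were −3.67 and −4.60 for Csf1r but −0.49 and −0.64 for Cd68.

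B cell markers did not share this order in number 3. The mean of 11 measured genes of 12 was 5.50, 7.15 and 6.28 on allogeneic arrays, against 5.38, 7.06 and 6.81 on anti-CD3/CD28 arrays and 5.70, 7.65 and 6.36 on syngeneic arrays. In these bulk samples fewer cells of a type, less RNA per cell and a smaller share of it bound to AGO cannot be told apart. The part that other cells had in the class II signals was not tested.

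**Figure D4:**
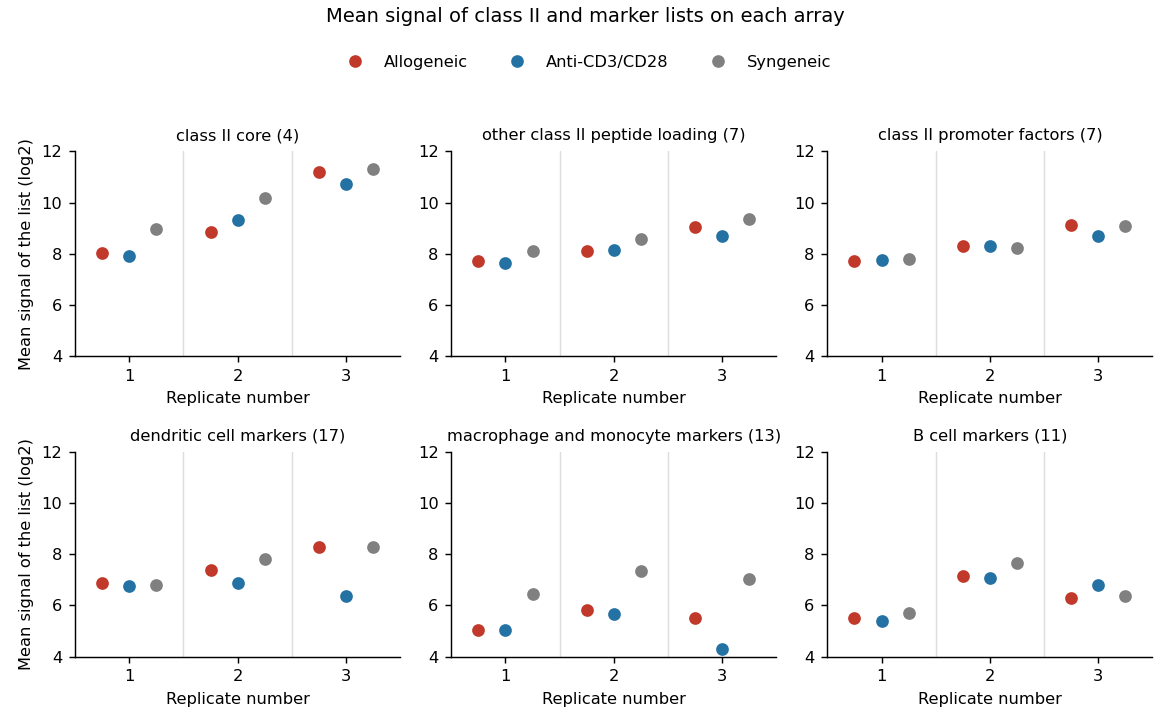
Mean signal (log2) on each array of the 4 class II genes, other peptide loading genes, promoter factors, dendritic cell, macrophage and B cell markers, by replicate number, with allogeneic arrays left of anti-CD3/CD28 and syngeneic arrays. Each point is 1 array, and the number of measured genes stands in each title. Macrophage markers are highest on the syngeneic array of every number, at 6.45, 7.35 and 7.04.

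Genes around the class II pathway gave 0 calls with an adjusted p under 0.05 in any of the 3 comparisons, with or without the block. Among other genes of peptide loading, 4 of 7 measured were lower than on the syngeneic array in all 3 numbers in each of the comparisons with it, where the shares of all probe sets were 7.49% and 8.3%. Ctss, a protease that trims the invariant chain, read 11.11, 10.79 and 11.26 on allogeneic arrays, against 10.91, 10.62 and 11.32 on anti-CD3/CD28 arrays and 11.65, 11.20 and 11.77 on syngeneic arrays. Ctss was lower on allogeneic than on syngeneic arrays by 0.49 ± 0.32 (SE) and on anti-CD3/CD28 than on syngeneic arrays by 0.59 ± 0.32, with an adjusted limma p of 1 in both comparisons. With the block both SEs were 0.08, and the adjusted p was 0.747 and 0.736.

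Ctsl, a related lysosomal protease, read 5.99, 7.69 and 7.81 on allogeneic arrays, against 5.99, 7.44 and 7.50 on anti-CD3/CD28 arrays and 7.00, 8.89 and 8.52 on syngeneic arrays. Its differences from syngeneic arrays were −0.97 and −1.15, with an SE of 0.79 without and 0.15 with the block, and the adjusted p with the block was again 0.747 and 0.736. The syngeneic array was the highest of each number for both proteases. H2-Ob, a chain of the H2-O protein that restrains H2-DM, read 7.73, 7.31 and 7.51 on allogeneic arrays, against 7.49, 7.76 and 8.87 on anti-CD3/CD28 arrays and 8.67, 8.22 and 8.33 on syngeneic arrays. Allogeneic and syngeneic arrays did not overlap, as for 0.535% of all probe sets, while anti-CD3/CD28 array 3 was above every syngeneic array. The adjusted p was 1 for the allogeneic minus syngeneic difference of −0.89 ± 0.61 (SE), and 0.747 with the block, where the SE was 0.36.

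Of the factors that bind the X and Y boxes, 0 of 7 were lower, and 0 higher, in all 3 numbers in either comparison with syngeneic arrays, where the shares of all probe sets were 7.49% and 8.3% lower and 6.84% and 7.94% higher. A difference between this count and that of the class II genes was not tested. Rfx5, the X box factor, read 7.95, 7.29 and 8.99 on allogeneic arrays, against 7.74, 7.26 and 8.77 on anti-CD3/CD28 arrays and 7.65, 8.20 and 9.57 on syngeneic arrays. All 7 lay above the median on every array, unlike Ciita.

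Of genes upstream of Ciita, 10 of 11 were measured. Ifng, which codes for interferon gamma, read 10.97, 9.42 and 10.85 on allogeneic arrays, against 10.73, 9.05 and 9.53 on anti-CD3/CD28 arrays and 8.07, 9.76 and 10.93 on syngeneic arrays. The syngeneic array was the lowest in number 1 and the highest in numbers 2 and 3. Jak2, a kinase of the interferon gamma receptor, read 10.12, 9.81 and 10.37 on allogeneic arrays, against 9.98, 9.13 and 9.48 on anti-CD3/CD28 arrays and 10.48, 10.17 and 11.00 on syngeneic arrays. Anti-CD3/CD28 and syngeneic arrays did not overlap, as for 1.53% of all probe sets. Their difference of −1.02 had an SE of 0.43 and an adjusted limma p of 1, and with the block an SE of 0.20 and an adjusted p of 0.736.

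Genes of class II traffic and turnover were split. Mif, a ligand of Cd74, read 10.55, 8.85 and 12.44 on allogeneic arrays, against 10.84, 9.48 and 11.82 on anti-CD3/CD28 arrays and 9.13, 8.51 and 11.53 on syngeneic arrays, and was lowest on the syngeneic array of each number. Marchf1, a ubiquitin ligase that removes class II from the surface, averaged 5.16 ± 0.90 on allogeneic arrays, 5.13 ± 0.96 on anti-CD3/CD28 arrays and 6.01 ± 1.81 on syngeneic arrays (SD, n = 3 each). None of these differences passed the adjusted test, with or without the block.

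Class I genes, which nearly all cells use, had differences near 0. Over 12 genes of class I presentation the mean difference by number was −0.16, 0.11 and −0.10 for allogeneic minus syngeneic and −0.18, 0.23 and −0.06 for anti-CD3/CD28 minus syngeneic. The median fitted differences of the list were −0.07 and −0.04. Nlrc5, the co-activator of class I genes and a relative of Ciita, averaged 10.28 ± 0.12 on allogeneic arrays, 10.37 ± 0.17 on anti-CD3/CD28 arrays and 10.55 ± 0.23 on syngeneic arrays (SD, n = 3 each).

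The genes whose pattern was most like the mean of the 4 class II genes were Capn2, D5Ertd579e, Arid1b, Supt5 and Ammecr1l, with Pearson r of 0.982, 0.982, 0.980, 0.979 and 0.973 over 9 arrays after the mean of each replicate number was removed. They were found among 9799 genes and are given as a description, since genes on the same 9 arrays share each array's normalization. The genes most like H2-Ea 1422891_at were Tatdn2, Rpl41, Rad9a, Shld2 and Golim4, with r from 0.995 to 0.997. These values rest on allogeneic array 3. Tatdn2 read 10.07 there, against 6.77 on anti-CD3/CD28 array 3 and 6.85 on syngeneic array 3, whereas Rpl41 read 13.43, against 13.40 on each of the other 2.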

How the data were processed

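The deposited table holds log2 signals for 45101 probe sets on 9 arrays, made by the authors with RMA, a background correction, normalization and summary per probe set, per the submitters' processing notes. Its software and version, and a genome build, were not given in the sources used here. Per the labels' protocols, AGO-bound RNA was amplified from small amounts before labelling. Values were used as deposited. Control probe sets (64) and probe sets with several symbols (932) or none (9160) were left out, which left 34945, of which 34741 matched a gene table by gene ID.

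The test was limma (version 3.58.1, R 4.3.3), with 1 mean per culture over all 9 arrays, an intensity trend and Benjamini-Hochberg adjustment over all 34945 probe sets at 0.05. The test was checked on simulated data. H2-Ea was also tested with exact permutation tests. The number of arrays limits the precision: over all probe sets the median SE of a difference (log2) was 0.639 without and 0.16 with the replicate block.

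The replicate numbers in the labels pair the arrays: after removal of culture means, correlations between arrays of the same number were 0.807 to 0.914 for the 9 pairs. The fit without the block was kept as the first test, and errors or adjusted p with the block are given for the members and for the pathway genes whose differences are described.

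All probe sets of the 8 members are named, with up to 3 genes of each pathway list and comparison by smallest p, and the 5 most alike genes. Marker genes given by array, and the order of examples within lists, were chosen after their values were seen. Members and lists were chosen with earlier results of these data known. Alternatives were the block, a random block, quantile normalization, median centring, a filter on dim probe sets at the 40th percentile, other variance settings and leaving out arrays or numbers.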

Additional observations from a re-analysis of the deposited data

How the results depend on the processing

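The class II counts of 0 and the differences of H2-Ea against both other cultures kept their side of the threshold under every alternative run. With the replicate number as a fixed block, limma called 0 probe sets in each comparison, and H2-Ea 1422891_at had adjusted p of 0.747 against syngeneic and 0.91 against anti-CD3/CD28 arrays. The block changed no call, and the exact p of the H2-Ea permutation test was 0.0741 with the pairing kept. With a random block 1 probe set was called for allogeneic against syngeneic and 16 for anti-CD3/CD28 against syngeneic, none of them a class II probe set. Quantile normalization turned the Ciita difference between allogeneic and anti-CD3/CD28 arrays to −0.06. Leaving out 1 array or 1 replicate number turned the direction of several uncalled differences. Such fits are unbalanced when 1 array is left out, so they take in the differences between replicate numbers. For allogeneic minus syngeneic the ranges were −1.96 to 0.58 for H2-Aa, −0.16 to 1.52 for H2-DMa, −0.80 to 0.48 for H2-DMb2, −1.45 to 0.00 for Cd74, −0.65 to 0.26 for Ciita and −0.70 to 3.47 for H2-Ea 1422892_s_at. For anti-CD3/CD28 minus syngeneic they were −2.09 to 0.38 for H2-Aa, −0.09 to 1.30 for H2-DMa, −0.94 to 0.02 for H2-DMb2, −0.61 to 0.26 for Ciita, −0.72 to 0.83 for H2-Ea 1422891_at and −2.07 to 0.42 for H2-Ea 1422892_s_at. For allogeneic minus anti-CD3/CD28 they were −1.10 to 0.66 for H2-Eb1, −1.06 to 1.40 for H2-Aa, −0.88 to 0.34 for H2-Ab1, −0.62 to 0.84 for H2-DMa, −0.44 to 0.71 for H2-DMb2, −0.70 to 1.02 for Cd74 and −0.52 to 0.48 for Ciita. H2-Ea 1422892_s_at against both other cultures ran from 0.00 to 3.26. In contrast, allogeneic minus syngeneic kept its sign for H2-Eb1 (−1.96 to −0.19), H2-Ab1 (−1.74 to −0.52) and H2-Ea 1422891_at (0.29 to 3.32), and anti-CD3/CD28 minus syngeneic did so for H2-Eb1, H2-Ab1 and Cd74. Signals near or under the array median, as for Ciita and 1426202_at, limit what can be measured, and with 3 arrays per culture only large differences can pass.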

Other observations

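Exact equality of values touched the class II genes in every replicate number. Between allogeneic and anti-CD3/CD28 arrays there were equal values for 9, 4 and 3 of the 20 probe sets in numbers 1, 2 and 3, or 45%, 20% and 15%, beside 49.9%, 23.5% and 27.5% of all 34945 probe sets. The 2 probe sets listed for both H2-DMb2 and H2-DMb1, which belong to no comparison above, read 4.32 to 6.28 and 4.96 to 7.32 over the 9 arrays.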
